A study of Homo sapiens with 6 samples.

Results

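HNF4A, FOXA1, FOXA2, CEBPA, ONECUT1, PROX1, NR5A2 and NR1H4 encode transcription factors of the hepatocyte, the working cell of the liver. Their transcripts were measured by RNA-seq in LM3 cells, an established human hepatocellular carcinoma (HCC) line, with and without knockdown of ZNF706, a zinc finger gene. The genes were chosen by symbol and are 8 of the 33007 genes in the deposited table. Each symbol stood on a single row, so no measured value decided which row was taken.

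All 6 samples were LM3 cells whose genotype the labels give as wild type. The control group (n = 3) carried the vector alone, and the knockdown group (n = 3) had stable depletion of ZNF706, for which the study's methods describe short hairpin RNA delivered by a pLKO.1 lentivirus and selection in puromycin. The labels do not say which hairpin was used, whether the cells were a pool or a clone, or whether samples of a group came from separate cultures, so p-values here measure the spread between these samples, which may be technical. Total counts were 62684076, 64713764 and 63054445 in control samples 1, 2 and 3 and 68548419, 65861994 and 69057423 in knockdown samples 1, 2 and 3, and every knockdown library was deeper than every control library.

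The transcript of ZNF706 (ENSG00000120963), the target of the knockdown, had 3211, 3504 and 3357 counts in control samples 1 to 3 and 2350, 2068 and 2298 in knockdown samples 1 to 3. All 3 knockdown samples lay below all 3 control samples. The level was 53.9 ± 1.76 CPM (counts scaled to library size with the TMM factors; SD, n = 3) in control cells and 32.4 ± 1.39 CPM (SD, n = 3) in knockdown cells. The log2 fold change was -0.73 with a standard error (SE) of 0.050 (adjusted p = 3.7e-05, edgeR's quasi-likelihood test), so the comparison is between full and reduced transcript, not between presence and absence.

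In the liver these factors work as a network in which members bind each other's regulatory regions as well as the genes of differentiated hepatocytes. FOXA1 and FOXA2 are forkhead proteins that can bind compacted chromatin and open it for other factors. HNF4A is a nuclear receptor needed for the differentiated state, CEBPA is a leucine zipper protein tied to metabolic genes and to a brake on cell division, and ONECUT1 and PROX1 are homeodomain proteins active in liver development. NR5A2 and NR1H4, also known as LRH-1 and FXR, are nuclear receptors that govern bile acid and cholesterol handling.

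Per unit of transcript length, 2 of the 8 factors stood apart from the rest. CEBPA had a mean of 3.20 FPKM (fragments scaled to transcript length and library size) over the 6 samples and FOXA1 had 1.98 FPKM, which placed them at the 75.4th and 71.1st percentile of all genes in the table. HNF4A followed at 0.0967, FOXA2 at 0.0783, NR1H4 at 0.0567, PROX1 at 0.0350, NR5A2 at 0.0183 and ONECUT1 at 0.00833 FPKM, all below the 50th percentile. By comparison, 11398 of the 33007 genes (34.5%) had a mean of at least 1 FPKM. The lowest CEBPA sample (2.63 FPKM) lay above the highest FOXA1 sample (2.21 FPKM), and the lowest FOXA1 sample (1.63 FPKM) lay above the highest HNF4A sample (0.23 FPKM). The mean of FOXA1 was 20.4 times that of HNF4A. From HNF4A downward, each gene's range over the 6 samples overlapped that of its neighbour. The order between neighbours among the lower 6 was thus not resolved beyond their spread. The lowest HNF4A sample (0.04 FPKM) did lie above the highest ONECUT1 sample (0.02 FPKM). The deposited FPKM values carry 2 decimals, which makes the lowest of these levels coarse.

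**Figure D1:**
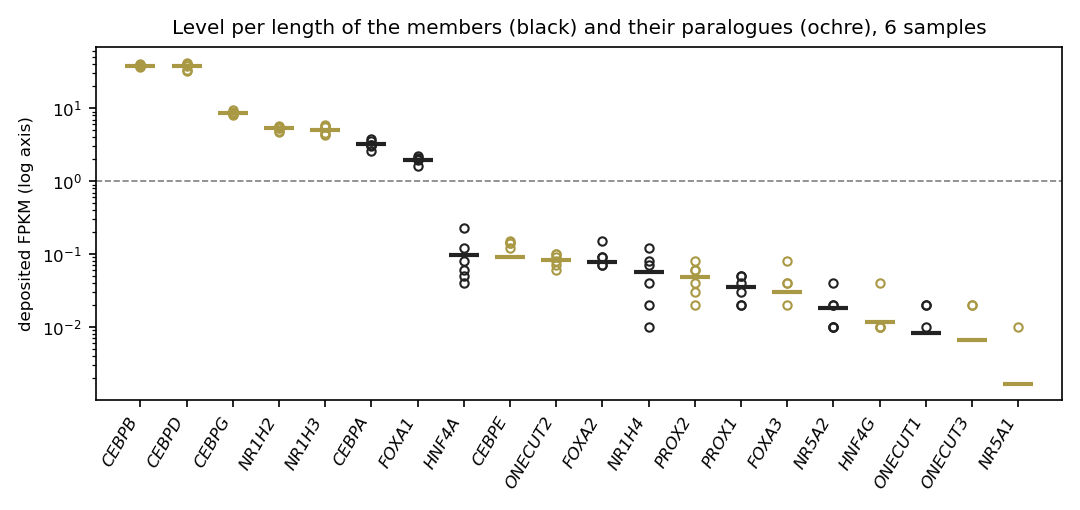
Deposited FPKM on a log axis for the 8 hepatocyte factors (black) and 12 paralogues (ochre), with 1 circle per sample and a bar for the mean of 6 samples. Values of 0 cannot be drawn on a log axis and are left out as circles but enter the mean, and the dashed line marks 1 FPKM. CEBPA and FOXA1 lie above the line and the other 6 factors lie below it, while CEBPB, CEBPD, CEBPG, NR1H2 and NR1H3 lie above every one of the 8.

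The label of the cells was compared with liver markers, of which 5 of 14 reached a mean of 1 FPKM, beside 34.5% of all genes. These were the keratins KRT18 (266 FPKM) and KRT8 (196 FPKM), the urea cycle enzyme CPS1 (42.6 FPKM), ALB (albumin, 2.17 FPKM) and APOA1 (1.30 FPKM). The biliary keratin KRT7 (294 FPKM) and the mesenchymal filament VIM (173 FPKM) stood at similar levels to KRT18 and KRT8. The immune marker MARCO had no count in any sample and PTPRC had at most 8. However, 2 of the 6 listed immune markers reached a mean of 1 FPKM, with CD68 the most abundant. Other secreted liver proteins on the list lay below 1 FPKM, such as SERPINA1 (0.523 FPKM) and TF (0.107 FPKM).

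Control sample 1 and knockdown sample 3 stood apart from the other samples in several secreted liver proteins. ALB had 189, 899 and 882 counts in control samples 1 to 3 and 587, 635 and 138 in knockdown samples 1 to 3. AFP, the fetal counterpart of albumin, had 71, 230 and 252 against 189, 156 and 31, and GPC3, a surface proteoglycan of HCC, had 6, 122 and 166 against 127, 101 and 0. These genes were chosen after their values were seen, and TF and FGB were low in the same samples. ASGR1, another hepatocyte marker, went the other way, with 96, 54 and 92 counts against 33, 35 and 74. SERPINA1 and APOA1 were lowest of the controls in control sample 1 but highest of the knockdown samples in knockdown sample 3. Each group holds 1 library low in ALB. The factors and the calls that change are also given without both of these libraries. This setting was chosen after seeing the data and leaves 2 samples a group.

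Across the table, edgeR's quasi-likelihood test called 4192 of 18390 genes tested at an adjusted p below 0.05, which is 22.8% (10.4% higher and 12.4% lower in knockdown cells). Of the 8 hepatocyte factors, 7 had enough counts to be tested, and 0 of these 7 were called. The exception was ONECUT1. By unadjusted p, edgeR gave 1 of 7 below 0.05 (HNF4A), DESeq2 gave 1 of 8 (HNF4A) and limma on log2(FPKM + 0.1) gave 1 of 2 (CEBPA). DESeq2 gave an adjusted p for 3 of the 8 and called 0. The TMM-scaled values of the groups did not overlap for 39.4% of the genes tested (19.7% in each direction), and they overlapped for each of the 8 factors. The median log2 fold change of the 7 tested factors was -0.05, beside 0.01 for all genes tested, with 2 above 0 and 5 below. Without control sample 1 and knockdown sample 3, 0 of 7 were called as well.

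**Figure D2:**
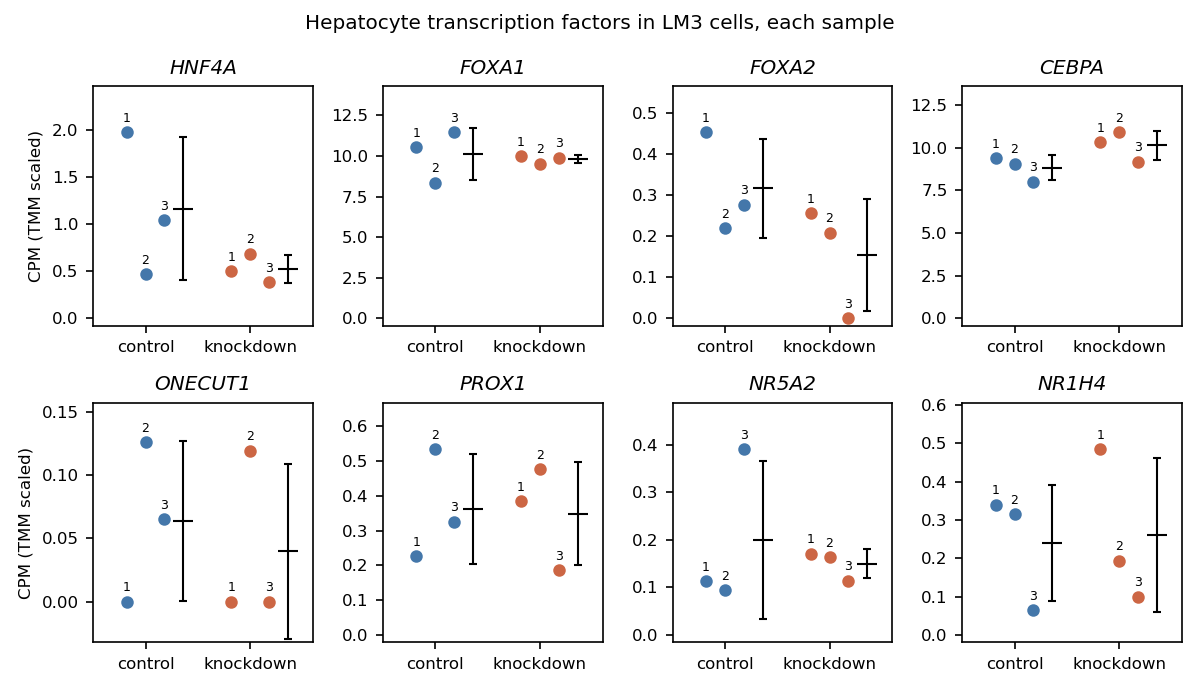
TMM-scaled CPM of each hepatocyte factor in each of the 6 LM3 samples, control in blue and ZNF706 knockdown in orange, with the sample number over each point and the mean ± SD (n = 3) in black. The axes differ between panels. In each panel the control and knockdown points overlap, HNF4A and FOXA2 are highest in control sample 1, and FOXA2 has no count in knockdown sample 3.

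CEBPA (ENSG00000245848, chr19:33299934-33302534 on GRCh38, minus strand) had 582, 576 and 492 counts in control samples 1 to 3 and 724, 731 and 643 in knockdown samples 1 to 3. On the CPM scale these were 9.40, 9.06 and 8.02 against 10.3, 10.9 and 9.19. Knockdown samples 1 and 2 lay above every control sample, while knockdown sample 3 lay between control samples 1 and 2. Per length the level was 2.92 ± 0.264 FPKM (SD, n = 3) in control cells and 3.47 ± 0.306 FPKM (SD, n = 3) in knockdown cells. The log2 fold change was 0.20 (SE 0.108, 95% interval -0.043 to 0.44), and the adjusted p was 0.23 (edgeR's quasi-likelihood test). Over the 16 alternative settings the log2 fold change stayed between 0.13 and 0.31, the latter without both control sample 1 and knockdown sample 3, and the adjusted p between 0.119 and 0.521. CEBPA had the highest level of the 8, its interval left room for a rise of up to 0.44 on the log2 scale, and the difference did not pass the test.

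FOXA1 (ENSG00000129514, chr14:37589552-37595249, minus strand) had 652, 531 and 703 counts in control samples 1 to 3 and 702, 640 and 693 in knockdown samples 1 to 3. All 3 knockdown samples (1.93 to 2.02 FPKM) fell inside the range of the control samples (1.63 to 2.21 FPKM). The level was 1.97 ± 0.303 FPKM (SD, n = 3) in control cells and 1.98 ± 0.046 FPKM (SD, n = 3) in knockdown cells. The log2 fold change was -0.04 (SE 0.122, 95% interval -0.32 to 0.23, adjusted p = 0.85, edgeR), and its sign depended on the setting. The interval excluded changes as large as that of ZNF706 (-0.73) in either direction.

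The start regions of the pair detected above 1 FPKM are shown beside those of HNF4A, the factor usually placed at the network's centre. Which annotated starts LM3 cells use was not measured. RefSeq entries (GRCh38.p14) matched 6 of the 8 factors, in 8 windows, and the 250 bases before each start are used. The searched letters were TGTTTAC or TGTTTGC for FOXA factors, CAAAGTCCA for HNF4 factors, TCAAGGTCA for NR5A2, TTGCGCAA, TTGCGTAA or TTACGCAA for C/EBP factors, and TATAAAA for the TATA box, each on both strands. Capitals mark a match, and each window reads 5′ to 3′ on the gene's own strand. The windows are chr19:33302535-33302784 (minus strand) for CEBPA, chr14:37595250-37595499 (minus strand) for FOXA1, and chr20:44355449-44355698 and chr20:44400989-44401238 (plus strand) for the upstream and downstream starts of HNF4A.
CEBPA: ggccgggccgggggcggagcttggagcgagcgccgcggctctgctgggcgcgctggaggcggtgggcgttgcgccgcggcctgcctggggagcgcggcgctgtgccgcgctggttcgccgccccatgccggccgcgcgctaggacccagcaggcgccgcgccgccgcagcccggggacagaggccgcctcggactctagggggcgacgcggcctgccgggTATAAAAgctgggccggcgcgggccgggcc
FOXA1: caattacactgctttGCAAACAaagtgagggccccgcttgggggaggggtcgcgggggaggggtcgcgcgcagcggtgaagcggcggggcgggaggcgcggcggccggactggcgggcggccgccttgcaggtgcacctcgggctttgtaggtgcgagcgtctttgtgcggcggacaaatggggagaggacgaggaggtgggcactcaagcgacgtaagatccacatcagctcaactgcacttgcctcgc
HNF4A upstream start: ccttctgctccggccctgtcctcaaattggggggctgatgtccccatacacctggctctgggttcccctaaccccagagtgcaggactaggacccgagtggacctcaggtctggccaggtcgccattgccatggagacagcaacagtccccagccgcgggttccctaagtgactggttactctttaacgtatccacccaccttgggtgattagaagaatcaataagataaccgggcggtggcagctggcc
HNF4A downstream start: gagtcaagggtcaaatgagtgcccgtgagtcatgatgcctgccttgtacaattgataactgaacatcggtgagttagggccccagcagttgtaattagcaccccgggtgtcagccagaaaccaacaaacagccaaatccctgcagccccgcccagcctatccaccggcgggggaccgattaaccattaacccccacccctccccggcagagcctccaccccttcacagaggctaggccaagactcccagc

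CEBPA had a TATAAAA match 30 bases before its start, which 4.18% of the 35116 windows of all genes held somewhere in the same length. FOXA1 held a TGTTTGC match, read on the opposite strand as GCAAACA, 235 bases before its start, beside 6.09% of all windows with a FOXA match. The starts of HNF4A lie 45540 bases apart. Neither the downstream one, known as the promoter used in adult liver, nor the upstream one held any of the searched letters in its window. The CEBPA window was 81.2% G and C (97.7th percentile of all windows, median 58.0%) and the FOXA1 window 67.2%, against 58.4% and 58.0% for HNF4A. The observed over expected CpG ratio was 1.01 in CEBPA and 0.977 in FOXA1, and 0.377 and 0.396 in HNF4A, beside a median of 0.558. ONECUT1, among the sparsest factors, had 76.8% G and C and a CpG ratio of 1.00, NR5A2 had CpG ratios of 0 and 0.817 in its windows, with a FOXA match 105 bases before the second start, and NR1H4 had a CpG ratio of 0.199. A match is a string of letters in this window and no measure of binding, and the counts do not tell the starts of HNF4A apart.

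HNF4A (ENSG00000101076, chr20:44355700-44434596, plus strand) had 122, 30 and 64 counts in control samples 1 to 3 and 35, 46 and 27 in knockdown samples 1 to 3. On the CPM scale these were 1.97, 0.472 and 1.04 against 0.499, 0.686 and 0.386. Control sample 1 was the highest and 4.18 times control sample 2, which lay inside the range of the knockdown samples. The log2 fold change was -1.15 (SE 0.492, 95% interval -2.25 to -0.047), with an unadjusted p of 0.0425 and an adjusted p of 0.128 (edgeR's quasi-likelihood test). The value turned on single libraries. Without control sample 1 it was -0.53 (adjusted p = 0.496), and without control sample 2 it was -1.52 and passed the test (adjusted p = 0.0356, edgeR). Without both control sample 1 and knockdown sample 3 it was -0.35 (adjusted p = 0.705, edgeR). The spread of HNF4A between replicates, a biological coefficient of variation of 43.7%, was at the 84.7th percentile of 2896 genes with like counts, whose median was 33.2%.

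FOXA2 (ENSG00000125798, chr20:22581005-22585455, minus strand), the paralogue of FOXA1, had 28, 14 and 17 counts in control samples 1 to 3 and 18, 14 and 0 in knockdown samples 1 to 3. After scaling, knockdown sample 1 lay inside the control range, knockdown sample 2 just below it, and knockdown sample 3 had no count. A count of 0 allows up to 3 counts, or 0.0429 CPM in that library, by counting error alone. The log2 fold change was -1.02 (SE 0.938, 95% interval -3.12 to 1.08, adjusted p = 0.496, edgeR) and moved to -0.44 without knockdown sample 3. Without both control sample 1 and knockdown sample 3 it was -0.093 (SE 0.710, adjusted p = 0.952, edgeR), so the estimate rested on these libraries. The same library held 13 genes at 0 that had at least 14 counts in each of the other 5 samples, FOXA2 among them, where the other libraries held 8 to 16 such genes.

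The balance of the FOXA paralogues within a library does not depend on how libraries are scaled. FOXA2 had 4.29, 2.64 and 2.42 counts per 100 FOXA1 counts in control samples 1 to 3 and 2.56, 2.19 and 0 in knockdown samples 1 to 3. Knockdown sample 1 lay inside the control range and the other knockdown samples lay below it. The means were 3.12 ± 1.03 and 1.58 ± 1.38 (SD, n = 3 each), and the difference of -1.53 had a two-sided p of 0.2 in an exact permutation test, in which 3 samples against 3 cannot give less than 0.1. The difference was -0.74 without knockdown sample 3 and -0.94 without control sample 1 (exact p = 0.4 each), and -2.51 when taken on FPKM (exact p = 0.3). FOXA1 was therefore the major transcript of the pair in each of the 6 samples.

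PROX1 and ONECUT1, the homeodomain factors, were close to the floor of detection. PROX1 (ENSG00000117707, chr1:213983181-214041510, plus strand) had 14, 34 and 20 counts in control samples 1 to 3 and 27, 32 and 13 in knockdown samples 1 to 3. The groups overlapped almost fully, and the log2 fold change was -0.05 (SE 0.545, 95% interval -1.27 to 1.16, adjusted p = 0.96, edgeR). ONECUT1 (ENSG00000169856, chr15:52755053-52791078, minus strand) had 0, 8 and 4 counts in control samples 1 to 3 and 0, 8 and 0 in knockdown samples 1 to 3, and was dropped by the filter of the main test. Without a filter, edgeR and limma fitted all 8 factors and called 0. At 0 to 8 counts per sample these fits say little about a difference in ONECUT1. The interval of PROX1 spans more than a doubling in either direction, so a change of the size seen in ZNF706 could not have been told from none.

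The nuclear receptors NR1H4 and NR5A2 were as sparse. NR1H4 (ENSG00000012504, chr12:100473708-100564414, plus strand) had 21, 20 and 4 counts in control samples 1 to 3 and 34, 13 and 7 in knockdown samples 1 to 3, with a log2 fold change of 0.11 (SE 0.776, 95% interval -1.62 to 1.85, adjusted p = 0.94, edgeR). NR5A2 (ENSG00000116833, chr1:200027614-200175603, plus strand) had 7, 6 and 24 counts in control samples 1 to 3 and 12, 11 and 8 in knockdown samples 1 to 3, with a log2 fold change of -0.41 (SE 0.744, 95% interval -2.07 to 1.26, adjusted p = 0.75, edgeR). In NR1H4 knockdown sample 1 was the highest and control sample 3 the lowest, and in NR5A2 control sample 3 alone was high. Leaving out control sample 3 turned both signs, to -0.33 for NR1H4 and 0.52 for NR5A2. Without both control sample 1 and knockdown sample 3, NR1H4 was 0.83 (SE 0.915, adjusted p = 0.608, edgeR). In bulk RNA such low values cannot tell a few cells with the transcript from little transcript in every cell.

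**Figure D3:**
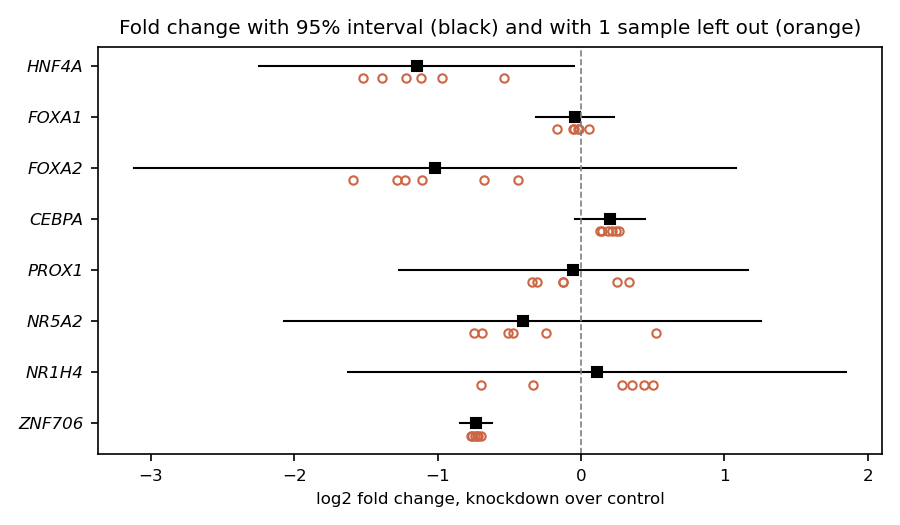
Log2 fold change of knockdown over control for the 7 tested hepatocyte factors and for ZNF706, with the edgeR estimate (square), its 95% interval (line) and the values with 1 sample left out (orange circles). FOXA1 and CEBPA have narrow intervals that include 0, the interval of HNF4A ends at -0.047, and the other factors span more than 2 log2 units, while ZNF706 stays between -0.77 and -0.70 with each sample left out.

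Rows of the table that overlapped a factor or lay within 5 kb of it were also read, since the counting program and its use of strand are not given in the sources used here. TTC6, 598 bases from FOXA1 on the opposite strand, had 7, 20 and 19 counts in control samples 1 to 3 and 53, 24 and 29 in knockdown samples 1 to 3 (log2 fold change 1.05, SE 0.550, adjusted p = 0.214, edgeR). LINC00261, a long noncoding RNA 2363 bases from FOXA2 on the same strand, had 68, 10 and 54 against 63, 33 and 7. It was low in control sample 2 and knockdown sample 3, whereas FOXA2 was low in the latter. CEBPA-DT, 323 bases from CEBPA, had 6, 4 and 0 against 11, 21 and 0 counts, and AL117382 beside HNF4A had 4, 0 and 0 against 0 in each knockdown sample. PROX1-AS1, which overlaps PROX1 on the opposite strand, had no count in any sample. The rows beside CEBPA and FOXA1 held at most 21 and 53 counts, against at least 492 and 531 counts in the factors.

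The genes whose profile over the 6 samples was closest to each factor with a mean count of at least 50 were found by the root mean square difference of centred log2 CPM, among 14131 genes. For HNF4A the closest were APOE (0.162) and PDE4B (0.176). APOE, an apolipoprotein, had 3.60, 1.05 and 2.09 CPM in the control samples and 1.23, 1.04 and 0.686 CPM in the knockdown samples. Its values, like those of HNF4A, peaked in control sample 1 and were lowest in knockdown sample 3. For FOXA1 the closest were WDR24 (0.0413), ZNF597 (0.0518) and RPGR (0.0545), and for CEBPA they were PDGFC (0.0310), STRA6 (0.0325) and ZBTB47 (0.0342). With 6 samples such likeness is a description only.

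Several paralogues of the factors were far more abundant than the factors themselves. CEBPB (38.5 FPKM) and CEBPD (37.8 FPKM), leucine zipper proteins of the same family as CEBPA, and CEBPG (8.64 FPKM) lay above CEBPA in each sample, as did NR1H2 (5.28 FPKM) and NR1H3 (5.05 FPKM), the oxysterol receptors related to NR1H4. Of the 12 paralogues listed, 8 were tested, 1 rose and 1 fell (median log2 fold change -0.14). Of all genes tested, 10.4% rose and 12.4% fell. CEBPD had 3594, 3842 and 3673 counts in control samples 1 to 3 and 3208, 3124 and 3736 in knockdown samples 1 to 3, and once scaled all 3 knockdown samples lay below all 3 control samples. Its log2 fold change was -0.29 (SE 0.059, adjusted p = 0.00623, edgeR). NR1H3 had 1473, 1450 and 1449 counts against 1981, 1925 and 2107, without overlap, and a log2 fold change of 0.31 (SE 0.062, adjusted p = 0.00612, edgeR). CEBPB (-0.12, adjusted p = 0.076) and NR1H2 (-0.19, adjusted p = 0.0692) did not pass edgeR's test, and both passed it without control sample 1 and knockdown sample 3. In both genes that setting removed the lowest control and the highest knockdown sample after scaling, so the gained calls follow from the removal. FOXA3, HNF4G, ONECUT3 and NR5A1 were too sparse to test.

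Among 20 other transcription factors of the liver, 17 were tested, 1 rose and 2 fell (median log2 fold change -0.07), beside 22.8% of all genes tested that were called. XBP1, a factor of the secretory pathway, had 6314, 6923 and 6377 counts in control samples 1 to 3 and 4865, 5246 and 5348 in knockdown samples 1 to 3. The scaled level fell from 105 ± 3.57 to 74.7 ± 4.67 CPM (SD, n = 3 each) without overlap, a log2 fold change of -0.49 (adjusted p = 0.000204, edgeR). ATF5 also fell (-0.31, adjusted p = 0.0244) and NR2F2 rose (0.15, adjusted p = 0.0319) in edgeR's test. ATF5 lost its call in 4 and NR2F2 in all 6 of the fits with a single sample left out, so that the list held 1 call without control sample 1, control sample 3 or knockdown sample 3. Without control sample 1 and knockdown sample 3 together, the log2 fold changes were -0.26 and 0.15 and neither passed (adjusted p = 0.134 and 0.108, edgeR). NR0B2, the small corepressor induced by NR1H4 and NR5A2, had 18, 12 and 31 counts against 3, 6 and 6, which did not overlap, and an adjusted p of 0.0526 in edgeR. TBX3 (29.3 FPKM), NR2F6 (32.2 FPKM), NR3C1 (29.6 FPKM), RXRA (4.94 FPKM) and HHEX (3.90 FPKM) were well measured and were not called.

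Coregulators through which nuclear receptors act were tested in full. Of 12, 4 fell and 0 rose (median log2 fold change -0.13), beside 12.4% of all genes tested that fell. The count was 2 without knockdown sample 2, 2 by limma on log2(FPKM + 0.1) and 0 by limma without a filter, and with a single sample left out NCOA1 was lost in 3 fits and NRIP1 in 2. The 4 were NRIP1 (-0.28), NCOA1 (-0.25), NCOA3 (-0.23) and MED1 (-0.20). Without control sample 1 and knockdown sample 3 all 4 kept a similar size, with NCOA3 (-0.20) and MED1 (-0.18) still past the test and NRIP1 (-0.22) and NCOA1 (-0.20) not. NRIP1 is a corepressor, and the other 3 are coactivators.

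Textbook target genes of the factors were counted by the factor they are assigned to, and most had few reads. Of 12 targets of HNF4A, 6 were tested, 3 fell and 0 rose (median log2 fold change -1.22), beside 12.4% of all genes tested that fell. The count was 1 without control sample 2, control sample 3, knockdown sample 1 or knockdown sample 3. SERPINA1, which encodes alpha-1 antitrypsin, had 195, 286 and 336 counts in control samples 1 to 3 and 116, 75 and 138 in knockdown samples 1 to 3. The groups did not overlap, and the log2 fold change of -1.47 (SE 0.261, adjusted p = 0.00336, edgeR) passed in all 16 alternative settings. APOB, the protein of very low density lipoprotein, had 156, 266 and 304 against 123, 158 and 127 counts (-0.98, adjusted p = 0.0205, edgeR) and passed in 8 of 16. PCK1, an enzyme of gluconeogenesis, had 12, 29 and 37 against 8, 4 and 7 counts (-2.17, adjusted p = 0.0384, edgeR) and passed in 3 of 13. In SERPINA1, APOB and PCK1 the lowest control sample was control sample 1, in which HNF4A was highest. G6PC had no count in any sample, and APOA4, F9 and CYP8B1 were not analysed here.

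Each of the other target lists held 1 call, beside 22.8% of all genes tested that were called. Of 6 targets of FOXA1 and FOXA2, 5 were tested and 1 fell (PCK1, median -0.70), and of 6 targets of CEBPA, 4 were tested and 1 fell (PCK1, median -0.76). PCK1 did not pass without control sample 1 and knockdown sample 3 (adjusted p = 0.052, edgeR), and CPS1, which did not pass with all samples, then did (-0.15, adjusted p = 0.0241, edgeR). For CPS1 these were the lowest control and the highest knockdown sample after scaling, so the call rests on their removal. IGFBP1, a secreted binding protein of insulin-like growth factors, had 18, 40 and 58 counts in control samples 1 to 3 and 0, 0 and 18 in knockdown samples 1 to 3 (adjusted p = 0.107, edgeR). It passed in that setting (adjusted p = 0.00674, edgeR), in which the one knockdown sample with counts was removed. With ALB and TF, which had set these libraries apart, the calls were then 2 in the FOXA list and 3 in the CEBPA list. Of 7 targets of NR5A2, 3 were tested and 1 rose, the lipoprotein receptor gene SCARB1 (0.11, adjusted p = 0.0304, edgeR). This call was lost with any sample left out, and without control sample 1 and knockdown sample 3 together (adjusted p = 0.142, edgeR). Of 10 targets of NR1H4, 5 were tested and 1 rose, the proteoglycan gene SDC1 (0.37, adjusted p = 0.000294, edgeR), with 3709, 3845 and 3747 counts in control samples 1 to 3 and 5244, 5279 and 5702 in knockdown samples 1 to 3. SLC51B had no count in any sample. Genes shared between these lists are counted in each.

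**Figure D4:**
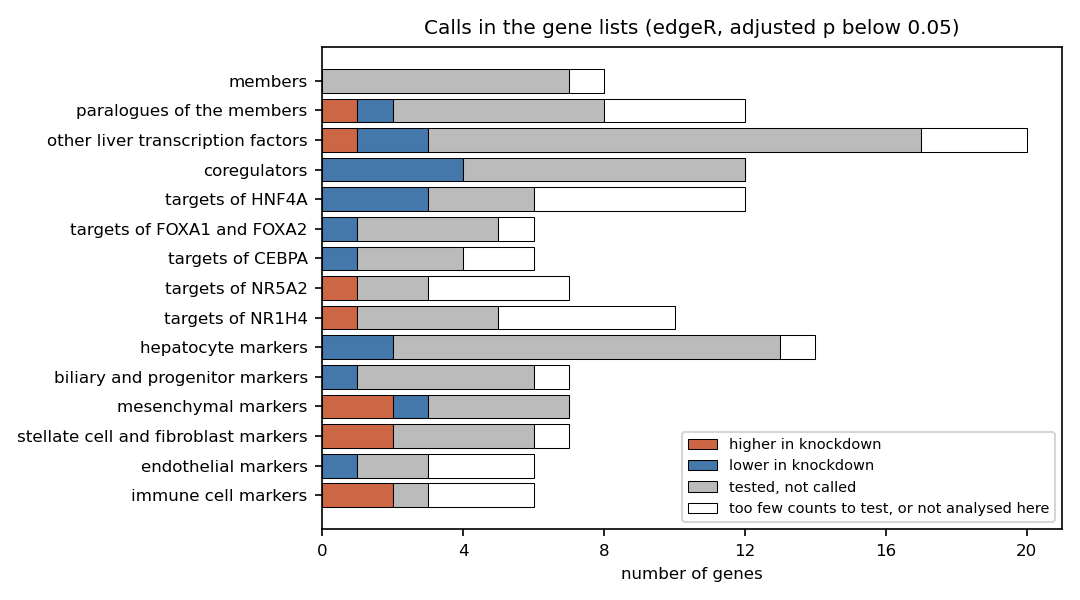
Number of genes in each list that were higher (orange) or lower (blue) in knockdown cells at an adjusted p below 0.05 in edgeR, tested and not called (grey), or not tested (white). The 8 hepatocyte factors (members) have no call, targets of HNF4A have 3 of 6 tested genes lower, and coregulators have 4 of 12 lower. Of all genes tested, 12.4% were lower. Over the alternative settings the number called was 1 to 3 in targets of HNF4A and 0 to 4 in coregulators.

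Among the hepatocyte markers 13 of 14 were tested, and SERPINA1 and APOB fell (median log2 fold change -0.67), beside 12.4% of all genes tested. The count of 2 was not stable, being 4 without control sample 1, 3 without knockdown sample 3, and 1 without control sample 2, control sample 3 or knockdown sample 1, as well as 4 with DESeq2 and 5 with the replicate number as a block. Without control sample 1 and knockdown sample 3, both passed edgeR's test (-1.84 for SERPINA1 and -1.15 for APOB). That removal took out the lowest control sample of both genes and the highest knockdown sample of SERPINA1. It widens the difference and so does not show that the calls are stable. ALB and TF are not compared in that setting, since their low values were what set these libraries apart. APOA1, the main protein of high density lipoprotein, had 122, 150 and 217 counts in control samples 1 to 3 and 0, 4 and 138 in knockdown samples 1 to 3. The groups overlapped through knockdown sample 3, and the log2 fold change of -1.95 had an adjusted p of 0.246 in edgeR. With knockdown sample 3 and control sample 1 removed, the kept counts were 150 and 217 against 0 and 4, and APOA1 passed (adjusted p = 0.00281, edgeR), a call that rests on the removal of the knockdown sample with 138 counts. HNF4A and FOXA2 did not share the order of ALB over the samples. As a share of the highest sample, control sample 1 had 21.3% for ALB and was itself the highest for HNF4A and FOXA2, whereas knockdown sample 3 was the lowest for ALB (13.7%), HNF4A (19.6%) and FOXA2 (0%).

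**Figure D5:**
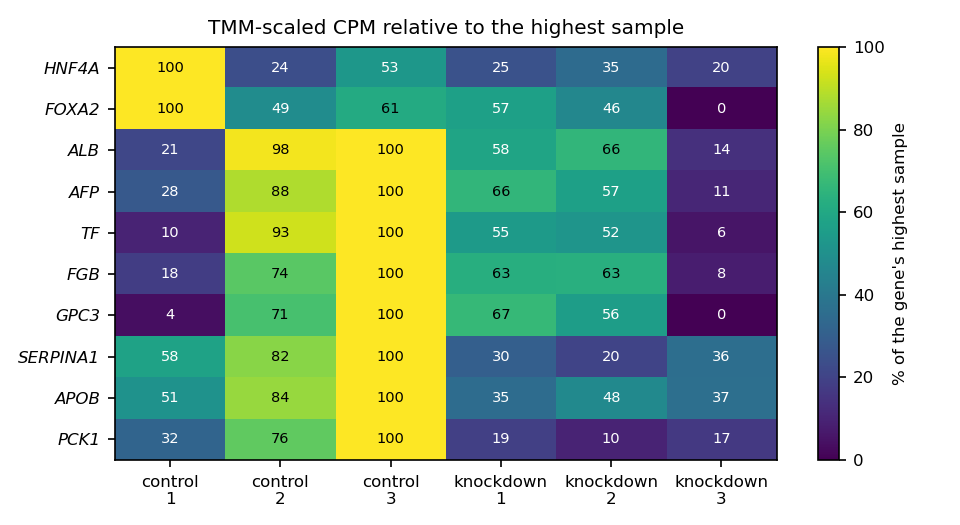
TMM-scaled CPM of HNF4A, FOXA2 and 8 liver genes in each of the 6 samples, as a percentage of each gene's highest sample (colour and printed value). Genes were chosen after their values were seen. Control sample 1 is the highest for HNF4A and FOXA2 and low for ALB, AFP, TF, FGB and GPC3, and knockdown sample 3 is low for all of these.

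Markers of other cells were read for the same libraries. Over all genes tested, 10.4% rose and 12.4% fell. The summed level of the 8 factors was 23.0, 19.2 and 21.6 CPM in the control samples and 22.1, 22.3 and 19.9 CPM in the knockdown samples, without separation of the groups. FOXA1 and CEBPA made up most of each sum, so it says little about the sparser factors. Of 7 biliary and progenitor markers, 6 were tested and KRT7, the most abundant, fell (-0.48). Of 7 mesenchymal markers, all tested, FN1 (0.65) and CDH2 (0.49) rose and ZEB2 (-0.41) fell, while VIM, the most abundant, was not called. ZEB2 passed in 9 of 16 alternative settings and was lost without control sample 1, knockdown sample 2 or knockdown sample 3. With both control sample 1 and knockdown sample 3 left out it was -0.26 and did not pass (adjusted p = 0.126, edgeR). Of 7 stellate cell and fibroblast markers, 6 were tested, and PDGFRB (0.68) and COL1A1 (0.20) rose. Of 6 endothelial markers, 3 were tested and CDH5 (-0.70) fell, and of 6 immune markers, 3 were tested and CD68 (0.64) and CSF1R (0.49) rose, with MARCO at 0 and PTPRC at 0 in all 3 knockdown samples. The part of other cell types in the values of the 8 factors was not tested.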

How the data were processed

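RNA from 3 control and 3 knockdown samples of LM3 cells with a RIN above 7.0 was sequenced on an Illumina NovaSeq instrument. Per the labels and the study's methods, the authors trimmed with cutadapt 1.9, checked reads with FastQC and mapped them to GRCh38 with HISAT2. The counting program, its use of strand and the annotation release are not given in the sources used here. The authors deposited raw counts per gene, not normalized, and FPKM values, scaled to gene length and library size. Total counts per sample were 62684076 to 69057423. Of 33007 genes, 1688 had no count.

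The counts were analysed with edgeR 4.0.16 in R 4.3.3, with its filterByExpr to drop sparse genes, TMM factors, a group term and the quasi-likelihood F test, and p-values were adjusted by Benjamini-Hochberg over 18390 genes. The SE was taken from the log2 fold change and the root of F, and intervals from the t quantile at the fit's degrees of freedom. Levels between genes used FPKM. The ratio of FOXA2 to FOXA1 was planned on the log2 scale and is given unlogged, since 1 count was 0. Floors (3 counts) cover counting error only.

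The members and lists were chosen with earlier results of these data known, so their p-values are no independent evidence. The genes named are the members, ZNF706, up to 4 called genes by size in each list, list genes at 0, rows within 5 kb of a member, and 3 nearest profiles for each member with a mean count of at least 50. Others were chosen after their values were seen, and a few genes that the rule names are left out here.

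Alternatives were DESeq2 1.42.0, its size factors in edgeR, library size alone, genes unfiltered or kept from a mean count of 50, limma 3.58.1 on log2(FPKM + 0.1) and log2(FPKM + 1), a replicate block, each sample left out, and, added after seeing the data, control sample 1 and knockdown sample 3 left out together. The fits were tested on simulated data, of which no outcome is given, and no result here rests on that test. Promoter sequences are from RefSeq (GRCh38.p14).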

Additional observations from a re-analysis of the deposited data

How the results depend on the processing

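Depth limits 6 of the 8 factors, which had at most 122 counts in any sample. ONECUT1 fell below the count filter of the main fit. It was fitted only by DESeq2 and by edgeR and limma without a filter. CEBPA kept its direction in all 16 alternatives, HNF4A in all 14 that could fit it and FOXA2 in all 13 (-1.59 to -0.093), and none of these was called except HNF4A without control sample 2 (-1.52). Of 13 hepatocyte markers, 2 were called, and 6 without control sample 1 and knockdown sample 3, a count that includes ALB and TF, by which these libraries were picked. The cause of the changes below was not tested. The number of factors called was 0 in every alternative but 1 and was 0 to 1 when single samples were left out. FOXA1 turned sign with library size alone (0.012), limma on log2(FPKM + 0.1) with or without a filter (0.018), limma on log2(FPKM + 1) (0.0099) and without control sample 3 (-0.16 to 0.054 over single samples left out). PROX1 turned with library size alone (0.00049), limma without a filter (0.036), without control sample 2 (0.33), without knockdown sample 3 (0.25; -0.34 to 0.33 over single samples) and without control sample 1 and knockdown sample 3 together (0.0016). NR5A2 turned without control sample 3 (-0.75 to 0.52 over single samples), and NR1H4 turned without control sample 3 (-0.33) and without knockdown sample 1 (-0.70 to 0.50 over single samples).

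In the whole data 4192 genes were called, 2648 to 3424 with each sample left out, 2990 without the filter on counts and 2668 by limma on log2(FPKM + 0.1) without a filter. The split was 1906 higher and 2286 lower, and 2742 higher and 1518 lower with library size alone. Of the listed genes, 23 of 84 tested were called, beside 22.8% of all genes tested. The count was 17 to 21 with each sample left out, of 86 to 89 tested. It was 14 of 105 by limma without a filter. By FPKM the knockdown mean was the higher in 4 factors, and by TMM CPM in 2. With the replicate number as a block, 4361 genes and 0 factors were called, and HNF4A was -0.99 (adjusted p = 0.219, edgeR). Deviations of samples with the same number had correlations of 0.0269, -0.0283 and 0.0294, beside -0.0523 to 0.0269 between samples of different number. Whether samples were paired by design cannot be told from these values.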

Other observations

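Low counts in the table were not evenly spread, which bears on the sparse factors. A count of exactly 4 was held by 1035 to 1167 genes per library, a count of 3 by 715 to 803 and a count of 5 by 401 to 427. The cause was not tested.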
